A study of Drosophila melanogaster with 7 samples.

Results

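The genes described here copy the chromosomes or separate them. They are 20 genes of DNA replication and 15 genes of mitosis and chromosome condensation, taken by name from the current gene annotation and its synonyms. All 35 had a named probe, among 11610 named genes on the array, and 34 of them had 1 probe while Cap-G had 3. They lie on every major chromosome arm, with 10 genes from arm 2L, 11 from arm 2R, 4 from arm 3L, 7 from arm 3R and 3 from the X. RNA came from salivary glands of crawling Drosophila melanogaster larvae of the third instar, a tissue whose large cells have left the division cycle. Each of 7 two-colour arrays set 1 sample with cleaved Rad21, the subunit that closes the cohesin ring, against 1 sample with intact Rad21. In the cleaved glands (w1118, hs-TEV/+, Rad21ex15 Rad21(TEV) over Rad21ex3) the Rad21 carried sites for the TEV protease. The intact glands had Rad21 from the genome on 3 arrays, numbered 1.1, 1.2 and 1.3 (w1118, hs-TEV/+, genomic Rad21 over Rad21ex3). They had Rad21 from a transgene on 4 arrays, numbered 2.1 to 2.4 (w1118, hs-TEV/+, Rad21ex3 tgRad21 over Rad21ex3). All animals, the controls included, carried hs-TEV, a protease gene under a heat shock promoter, and at least 1 Rad21ex3 allele, and all glands received 45 min at 37 °C and 10 to 12 h at room temperature. The fly stock differs between the sides of every array, so stock and cleavage cannot be told apart.

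A chromosome is licensed for copying when the origin recognition complex, Cdc6 and Cdt1 (dup in the fly) load the ring-shaped MCM helicase on DNA. CDC45L and Mcm10 help to turn that helicase on, and PCNA, the clamp that Gnf1's complex loads, holds the polymerases at the fork. Larval salivary gland cells copy their DNA in the endocycle, in which rounds of DNA synthesis follow each other with no mitosis and build giant polytene chromosomes. Cyclin E and E2f1 drive these rounds. Mitotic cyclins, the spindle checkpoint, condensin and separase act mainly in dividing cells, and the gland keeps a small ring of diploid imaginal cells at its neck. Separase, the mitotic protease, cuts the same Rad21 protein that TEV cut here.

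The values are log ratios as deposited, read as log2. Their base and their numerator are not stated, so signs keep the deposited direction. Values below 0 probably stand for lower transcript amounts after cleavage. The basis is the ecdysone receptor gene EcR, known from other work to be lower without cohesin, whose fitted log ratio here was −1.77 ± 0.17 (± is the standard error of the limma fit throughout, n = 7 arrays). The SD of all genes' log ratios ran from 0.55 on array 1.2 to 1.14 on array 2.1, and the median of all genes from −0.22 on array 2.1 to 0.25 on array 2.3. Rose and fell stand for positive and negative deposited ratios that passed the test. No spot intensity was analysed here, so neither a gene's level nor a detection limit is known, and the number of arrays limits the precision. In whole glands, fewer cells of a type and less RNA per cell cannot be told apart.

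No gene among the 35 passed the test over all 7 arrays (limma with a dye term, Benjamini-Hochberg adjustment over 11610 genes, adjusted p under 0.05), where 945 genes, or 8.14%, did. At an unadjusted p under 0.05 there were 4 of the 35, or 11.4%, against 20.3% of all genes. These were Orc1 (limma adjusted p = 0.086), aurB (0.123), Cdc6 (0.171) and Mcm10 (0.209), and all 4 had negative fitted log ratios. The fitted log ratio was negative for 15 of 20 replication genes and 12 of 15 mitosis genes, together 77.1%, against 46.7% of all genes. The median fitted log ratio was −0.22 over the replication genes and −0.17 over the mitosis genes, against 0.02 over all genes. With 1 array left out, the replication median was nearest 0 without array 2.1 (−0.12), 2.2 (−0.14) or 2.3 (−0.11), and the mitosis median without array 2.4 (−0.10). With arrays weighted by their quality in limma, the replication median was −0.03 and the mitosis median −0.23. Replication genes ranged from −0.62 to 0.17 and mitosis genes from −0.72 to 0.80. Only Orc1 had the same sign on all 7 arrays, which is 2.86% of the 35 against 11.9% of all genes.

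**Figure D1:**
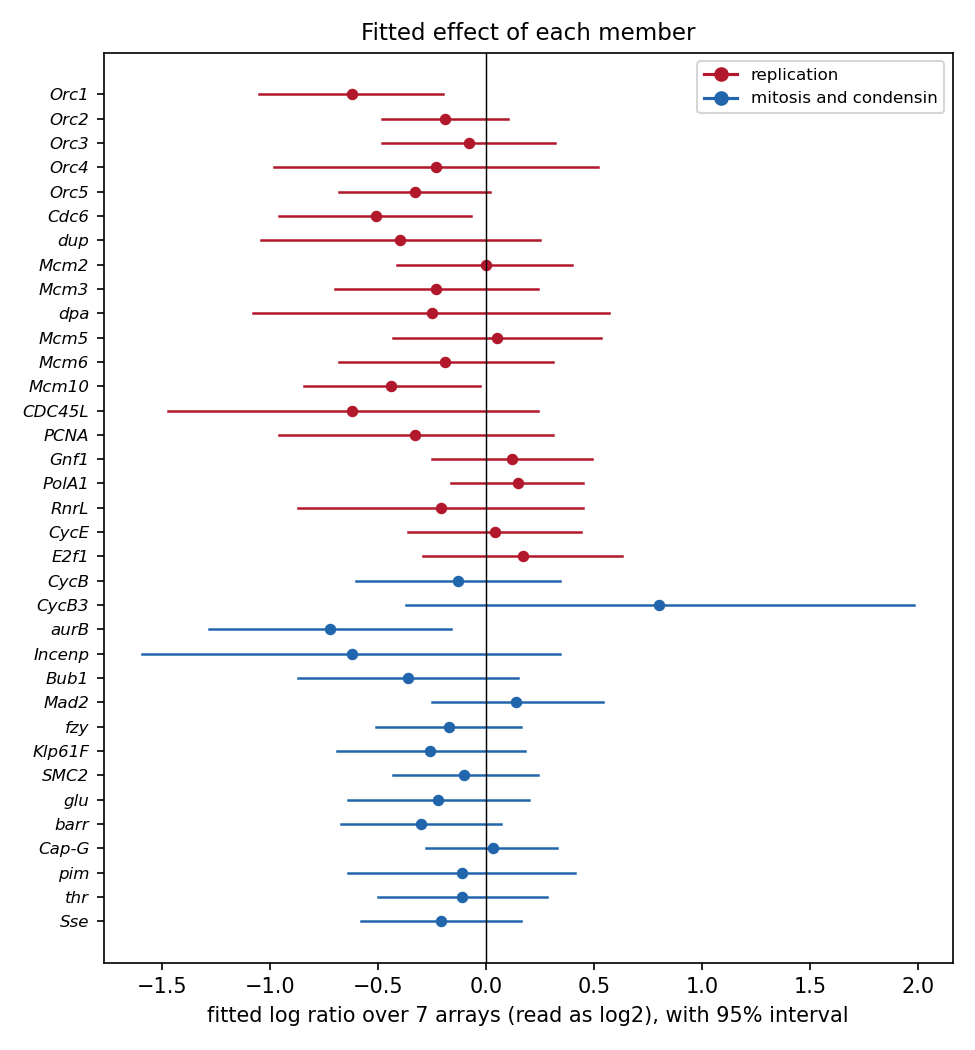
Fitted log ratio (x axis, read as log2) of each of the 35 genes over 7 arrays, with bars for the 95% interval of the limma fit, red for replication and blue for mitosis and condensin genes. The intervals of Orc1, Cdc6, Mcm10 and aurB lie below 0 before adjustment, and CycB3 has the widest interval.

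Origin licensing genes had a fitted log ratio below 0 in 7 of 7 cases, with a median of −0.33. Orc1, the ATP-binding subunit of the origin recognition complex, read −0.06, −0.51 and −0.13 on arrays 1.1 to 1.3 and −1.06, −0.98, −1.12 and −0.54 on arrays 2.1 to 2.4. The 3 genomic-control values all lay above the 4 transgenic-control values. Its fitted log ratio was −0.62 ± 0.19 (limma adjusted p = 0.086). Cdc6, which joins the complex at origins, read 0.08, −0.37 and −0.19 on the genomic-control arrays and −0.52, −1.05, −1.21 and −0.28 on the transgenic-control arrays. Array 1.1 was the one positive value, and the sets overlapped because array 2.4 lay above array 1.2. The fit gave −0.51 ± 0.19 (limma adjusted p = 0.171). The helicase loader dup read 0.30, 0.01 and 0.09 with genomic controls and −1.89, −0.18, −0.11 and −1.03 with transgenic controls. The sets lay on opposite sides of 0, but the value on array 1.2 was below the median of all genes there (0.03). Arrays 2.1 and 2.4 were far below arrays 2.2 and 2.3. Its fit over all arrays was −0.40 ± 0.28 (limma adjusted p = 0.551).

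The other subunits of the origin complex were less uniform. Orc4, another ATP-binding subunit, read −0.58, −0.65 and 2.04 on arrays 1.1 to 1.3 and −0.91, −1.20, −1.09 and 0.18 on arrays 2.1 to 2.4. Of these, 5 were negative, and array 1.3 stood far above the next highest, array 2.4. Orc5 read −0.20, −0.56, −0.01, −1.08, −0.44, −0.37 and 0.10 in array order and fitted to −0.33 ± 0.15 (limma adjusted p = 0.277). Only array 2.4 was positive. Orc2 read −0.43, −0.23, 0.02, −0.35, −0.36, −0.26 and 0.13, and its genomic-control and transgenic-control means were both −0.21. Orc3 read 0.15, 0.12 and 0.25 with genomic controls and −0.70, −0.35, 0.35 and −0.49 with transgenic controls. Its genomic-control values were all positive, and array 2.3 exceeded each of them.

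The helicase genes had negative fitted log ratios over all arrays in 6 of 7 cases and a median of −0.23. The MCM subunit gene dpa read 0.06, −0.21 and −0.01 on arrays 1.1 to 1.3 and −1.59, −1.80, −0.75 and 1.90 on arrays 2.1 to 2.4. Its transgenic-control SD was 1.70 against a genomic-control SD of 0.14. Mcm6 read 0.07, −0.39 and 0.40 with genomic controls and −1.44, −1.36, 0.11 and 0.73 with transgenic controls. Mcm5 read 0.08, −0.46 and 0.79, then −1.33, −0.84, 0.18 and 1.24. In both of these genes arrays 2.1 and 2.2 were the lowest of the 7, as they were in dpa, Mcm2 and Mcm3. Mcm3 read 0.10, −0.06 and 0.16, then −1.32, −0.66, −0.44 and 0.33. Mcm2 read 0.54, −0.07 and 0.16, then −0.73, −0.45, 0.33 and 0.02. The 5 subunits had a median of −1.33 on array 2.1 and −0.84 on array 2.2 but of 0.11 on array 2.3 and 0.73 on array 2.4. Fitted log ratios of the 5 ran from −0.25 ± 0.36 in dpa to 0.05 ± 0.21 in Mcm5 (limma adjusted p from 0.654 to 0.995).

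The helicase activators were negative on all 4 transgenic-control arrays, unlike the MCM subunits. CDC45L, now named Cdc45, whose protein rides with the active helicase, read −0.41, −0.47 and 1.36 on arrays 1.1 to 1.3 and −1.70, −1.24, −2.01 and −0.19 on arrays 2.1 to 2.4. Its lowest value stood on array 2.3, and its fit over all arrays was −0.62 ± 0.37 (limma adjusted p = 0.445). Mcm10 read −0.06, −0.49 and 0.01 with genomic controls and −1.35, −0.94, −0.20 and −0.30 with transgenic controls. It was negative on 6 of 7 arrays and fitted to −0.44 ± 0.18 (limma adjusted p = 0.209).

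Fork and nucleotide genes fell into 2 patterns. PCNA, the sliding clamp, read −0.08, −1.12 and 0.80 on arrays 1.1 to 1.3 and −2.23, −1.92, 0.04 and 1.22 on arrays 2.1 to 2.4. RnrL, the large subunit of the enzyme that makes deoxynucleotides, read 0.63, −0.61 and 0.34, then −1.31, −1.25, −0.67 and 0.98. Both were lowest on arrays 2.1 and 2.2 and highest on array 2.4, and neither fit passed (limma adjusted p = 0.638 for PCNA and 0.805 for RnrL). Gnf1, the large subunit of the clamp loader, read 0.62, −0.02 and 0.32, then 0.63, −0.01, −0.41 and −0.12. PolA1, the catalytic subunit of the polymerase that starts new strands, read 0.16, −0.20 and 0.47, then 0.13, −0.12, 0.03 and 0.39. These last genes stayed within 0.63 of 0 on every array and did not share the low values of arrays 2.1 and 2.2. Their fitted log ratios were 0.12 ± 0.16 for Gnf1 and 0.15 ± 0.13 for PolA1.

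The regulators of S phase had fits near 0, while single arrays ran from −0.51 to 1.16. CycE read 0.62, 0.28 and 0.05 on arrays 1.1 to 1.3 and −0.51, 0.60, −0.14 and −0.38 on arrays 2.1 to 2.4. E2f1, a transcription factor of replication genes, read 1.16, 0.02 and 0.23, then −0.45, 0.12, 0.19 and −0.06. Their fits were 0.04 ± 0.17 (95% interval −0.36 to 0.44) for CycE and 0.17 ± 0.20 (−0.29 to 0.63) for E2f1. Both genes were negative on array 2.1, where replication genes read lowest, and positive on array 2.2, where the MCM genes were also low.

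**Figure D2:**
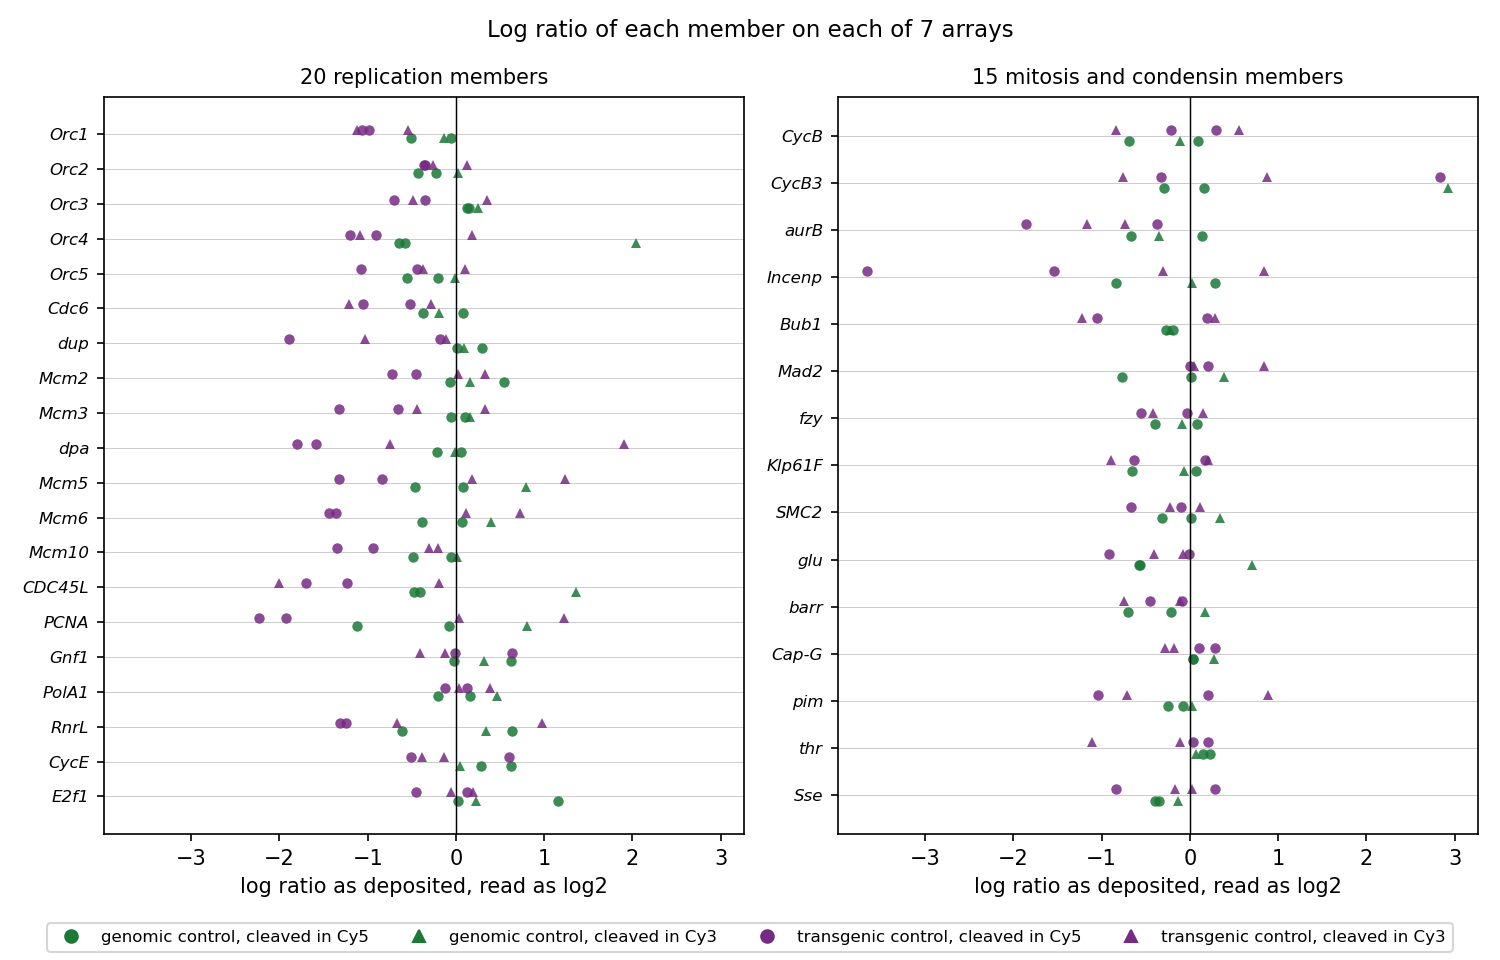
Deposited log ratio (x axis, read as log2) of each gene on each array, 20 replication genes on the left and 15 mitosis and condensin genes on the right. Green points are the 3 genomic-control and purple points the 4 transgenic-control arrays, circles have the cleaved sample in Cy5 and triangles in Cy3, and the MCM genes, PCNA and RnrL have their purple circles (arrays 2.1 and 2.2) to the left.

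The mitotic cyclins differed from each other. CycB, the cyclin of entry into mitosis, read −0.69, 0.09 and −0.11 on arrays 1.1 to 1.3 and −0.21, 0.30, 0.56 and −0.84 on arrays 2.1 to 2.4. CycB3, which acts late in mitosis, read −0.29, 0.16 and 2.93, then 2.83, −0.33, −0.76 and 0.87. The highest CycB3 values came from 1 array of each control type and of each dye orientation, and the other 5 lay between −0.76 and 0.87. Its fit of 0.80 ± 0.51 had the largest positive value of the 35 genes and did not pass (limma adjusted p = 0.483).

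The chromosomal passenger genes aurB and Incenp had the most negative fits among the mitosis genes of the 35. Other passenger genes, outside the 35, did not read low. borr fitted to −0.01 ± 0.20 and Det to 0.38 ± 0.19 (limma adjusted p = 0.989 and 0.342). aurB, the Aurora kinase that corrects spindle attachment, read −0.67, 0.14 and −0.35 on arrays 1.1 to 1.3 and −1.86, −0.37, −0.73 and −1.17 on arrays 2.1 to 2.4. It was negative on 6 of 7 arrays and fitted to −0.72 ± 0.24 (limma adjusted p = 0.123). Incenp, which anchors and activates that kinase, read −0.84, 0.29 and 0.03, then −3.66, −1.54, −0.30 and 0.84. The value on array 2.1 was the lowest of any of the 35 genes on any array, and the fit of −0.62 ± 0.42 did not pass (limma adjusted p = 0.516).

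The checkpoint and spindle genes had smaller ratios. Bub1, a checkpoint kinase, read −0.27, −0.19 and −0.22 on arrays 1.1 to 1.3 and −1.05, 0.19, 0.28 and −1.22 on arrays 2.1 to 2.4. Arrays 2.1 and 2.4 were low together, as in dup and aurB. Klp61F, the motor that pushes spindle poles apart, was lowest on arrays 2.4 (−0.89), 1.1 (−0.66) and 2.1 (−0.63) and lay between −0.07 and 0.21 on the others. The activator of the anaphase-promoting complex, fzy, had its lowest values on the same arrays, −0.55 on 2.1, −0.42 on 2.4 and −0.40 on 1.1. Mad2, a checkpoint protein, ran from −0.77 on array 1.1 to 0.84 on array 2.3 and was the one gene of its group with a positive fit (0.14 ± 0.17). The 4 limma adjusted p-values of these genes lay between 0.467 and 0.768.

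Condensin genes, which compact mitotic chromosomes and some of which also act on polytene ones, had fits from −0.30 to 0.03. Their fitted log ratios were −0.10 ± 0.15 for SMC2, −0.22 ± 0.18 for glu (the SMC4 subunit), −0.30 ± 0.16 for barr (the kleisin subunit) and 0.03 ± 0.13 for Cap-G. The lowest limma adjusted p of the 4 was 0.375, for barr, which was negative on 6 of 7 arrays and ranged from −0.75 to 0.17. glu was also negative on 6 of 7, with 0.71 on array 1.3 as the exception and −0.92 on array 2.2 as the lowest. SMC2 ranged from −0.67 on array 2.2 to 0.34 on array 1.3. The 3 Cap-G probes were fitted at 0.12, −0.04 and 0.01, and on array 2.3 they disagreed, with 0.60 on one and −0.60 and −0.53 on the others.

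Separase and its partners had fits from −0.21 to −0.11, while single arrays ran from −1.11 to 0.89. Sse, the protease subunit, ranged from −0.84 on array 2.1 to 0.29 on array 2.2 and fitted to −0.21 ± 0.16. thr, its large partner, read between −0.11 and 0.23 on 6 arrays and −1.11 on array 2.4. pim, the securin that holds separase inactive, ranged from −1.04 on array 2.1 to 0.89 on array 2.3. None passed (limma adjusted p from 0.592 to 0.882), and the 95% intervals of the fits were −0.58 to 0.16 for Sse, −0.50 to 0.28 for thr and −0.64 to 0.41 for pim.

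The median of the replication genes differed between the types of control, and that of the mitosis genes did so by less. Without a dye term, the median of the replication genes' mean log ratios was 0.13 on the 3 genomic-control arrays and −0.51 on the 4 transgenic-control arrays, against 0.02 and −0.01 for all genes. For the mitosis genes it was −0.15 and −0.22. The genomic-control median of the replication genes was −0.11 without array 1.3 and 0.05 without array 1.1. The transgenic-control one was −0.22 without array 2.1 and −0.33 without array 2.2. With arrays scaled to a common spread, the replication medians were 0.035 and −0.32. The genomic-control mean was above the transgenic-control mean in 19 of 20 replication genes (95%) and in 12 of 15 mitosis genes (80%), against 54.8% of all genes. Orc2 was the replication gene that did not follow, with its means equal to 2 decimals, and CycB, Mad2 and Sse were the mitosis genes. With single arrays left out, the replication count lay between 17 and 20, while the share of all genes lay between 47.5% (without array 2.1) and 64.2% (without array 2.3). Without array 1.3 the mitosis count was 7 of 15, near the 49.8% of all genes. It was also 7 with arrays scaled to a common spread, against 52% of all genes, and on the Cy5 arrays alone, against 54.6%, and the replication counts there were 17 and 18.

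With a separate effect for each control type, no gene of the 35 passed on the genomic-control arrays, where 0.896% of all genes did. At an unadjusted p under 0.05 there were also 0 of the 35, against 11.7% of all genes. On the transgenic-control arrays 1 of the 35 passed, Orc1, where 4.07% of all genes did, and 7 of 35 (20%) had an unadjusted p under 0.05, against 17.8% of all genes. Orc1 fell there, with a fitted log ratio of −0.92 ± 0.19 (limma adjusted p = 0.0486), and was negative on all 4 arrays. That call was lost in 11 of 12 alternative analyses, with adjusted p up to 0.298. The others at an unadjusted p under 0.05 were CDC45L (−1.29 ± 0.34, limma adjusted p = 0.0995), aurB (−1.03 ± 0.29, 0.112), Mcm10 (−0.70 ± 0.20, 0.12), Cdc6 (−0.76 ± 0.23, 0.132), dup (−0.80 ± 0.31, 0.241) and Incenp (−1.16 ± 0.49, 0.278). Of the 35 genes, 8 were negative on all 4 transgenic-control arrays, or 22.9% against 11% of all genes. These were Orc1, Cdc6, dup, Mcm10, CDC45L, aurB, glu and barr.

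The difference between the control types was tested in the same fit, and it passed for 0 of the 35 genes and for 0% of all genes. At an unadjusted p under 0.05 it held 3 of the 35, all of them replication genes, or 8.57% against 4.33% of all genes. CDC45L differed by 1.60 ± 0.53 (genomic minus transgenic, 95% interval 0.35 to 2.85). Orc4 differed by 1.26 ± 0.53 (0.01 to 2.51) and Orc1 by 0.72 ± 0.30 (0.01 to 1.43), and the limma adjusted p of all 3 was 1.0. Array 1.3 held the highest value of CDC45L and of Orc4. The difference of plain means was 1.45 for CDC45L and 1.03 for Orc4 over all arrays, and 0.84 and 0.14 without array 1.3, while it was 0.69 and 0.64 for Orc1. The fitted difference was positive in 20 of 20 replication genes with a median of 0.61, and in 12 of 15 mitosis genes with a median of 0.13, against 0.07 for all genes. The arrays of the control types did not overlap in 2 of the 35 genes, Orc1 and dup, or 5.71%, against 4.07% of all genes. Each control type had arrays of its own, so the control, the set of arrays and the stock cannot be told apart.

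**Figure D3:**
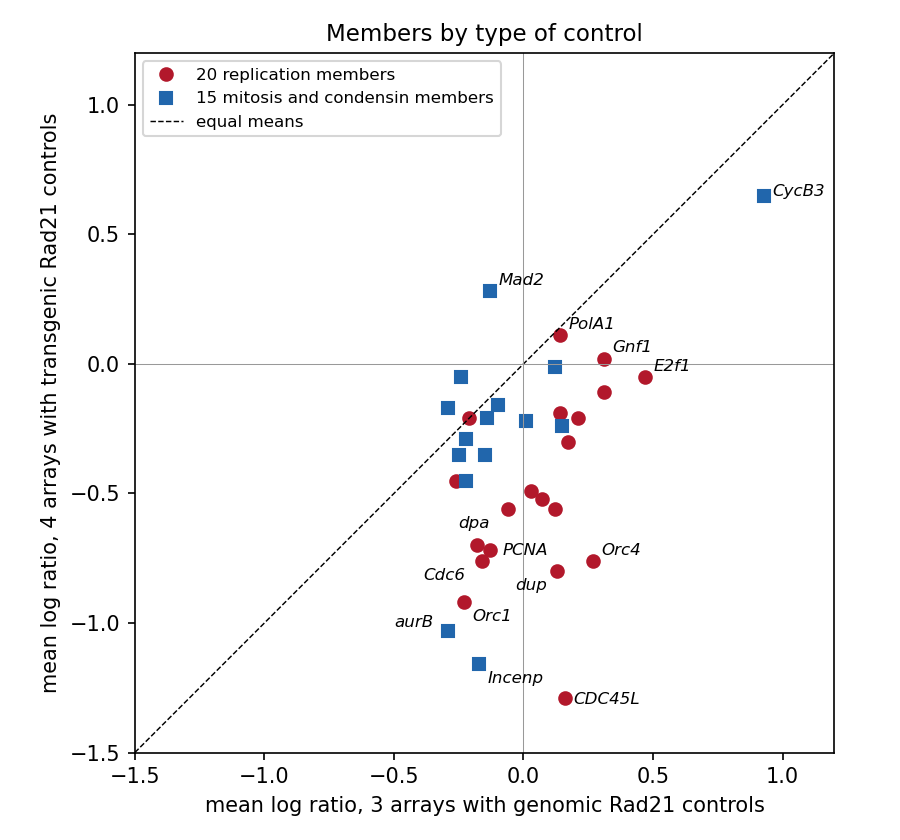
Mean log ratio (read as log2) of each gene on the 3 genomic-control arrays (x axis) and on the 4 transgenic-control arrays (y axis), with red circles for replication, blue squares for mitosis and condensin genes and a dashed line of equal means. All but 1 of 20 replication genes lie under the line, CDC45L farthest from it. Among the mitosis genes Incenp and aurB lie farthest from the line, and CycB, Mad2 and Sse lie above it.

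Array by array, the medians of the replication and the mitosis genes kept no fixed order. The replication median was lowest on array 2.1 (−1.07) and next on array 2.2 (−0.75), with −0.30 on array 1.2 and −0.23 on array 2.3. It was 0.06 on array 2.4, 0.08 on array 1.1 and 0.19 on array 1.3. The mitosis median was −0.45 on array 2.1, −0.42 on array 2.4 and −0.40 on array 1.1, and on the other 4 arrays it lay between −0.11 and 0.10. These 3 arrays were also those on which the median of all genes was below 0 (−0.22, −0.14 and −0.06). The replication median was above the mitosis median by 0.48 on arrays 1.1 and 2.4 and by 0.16 on array 1.3. The difference was −0.34, −0.62, −0.85 and −0.12 on arrays 1.2, 2.1, 2.2 and 2.3, so the order of the groups was not fixed within either control type. On array 2.2, 18 of 20 replication genes and 7 of 15 mitosis genes were negative, against 44.7% of all genes.

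**Figure D4:**
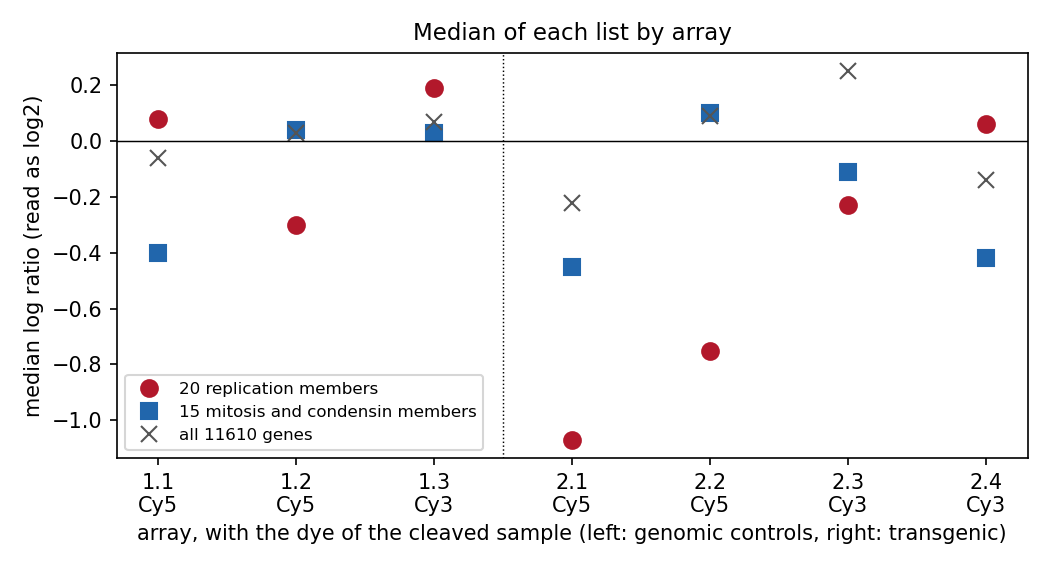
Median log ratio (y axis, read as log2) of 20 replication genes (red circles), 15 mitosis and condensin genes (blue squares) and all 11610 genes (crosses) on each array, with the dye of the cleaved sample under its number. The replication median lies at −1.07 and −0.75 on arrays 2.1 and 2.2, and the mitosis median is lowest on arrays 1.1, 2.1 and 2.4.

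Dye orientation moved with the low replication values of the transgenic-control arrays. On arrays 2.1 and 2.2 the RNA from cleaved glands was labelled with Cy5, and on 2.3 and 2.4 with Cy3. The median of the replication genes' means was −1.0 on the Cy5 arrays and −0.07 on the Cy3 arrays, and 18 of 20 genes were lower on the Cy5 arrays, against 55.4% of all genes. Over the 7 helicase genes alone the medians were −1.14 and 0.17. The mitosis genes gave −0.27 and −0.14, with 8 of 15 lower on the Cy5 arrays. Licensing genes had medians of −0.79 and −0.46, and 7 of 7 were lower on the Cy5 arrays. On the Cy3 arrays their means ran from −0.83 in Orc1 to −0.07 in Orc2 and Orc3. In the fit over all arrays the dye term passed for 0 genes. At an unadjusted p under 0.05 it held 3 of the 35 genes and 1072 of all 11610 genes, a similar share. The 3 were PCNA (Cy5 minus Cy3 −2.02 ± 0.55), Mcm5 (−1.38 ± 0.42) and Mcm6 (−1.19 ± 0.43), and the limma adjusted p of each was 0.536. Among the genomic-control arrays, 1.1 and 1.2 had the cleaved sample in Cy5 and only 1.3 had it in Cy3. On the Cy5 arrays alone the genomic-control mean was above the transgenic-control mean in 18 of 20 replication genes, against 54.6% of all genes. On the Cy3 arrays alone, where array 1.3 was the single genomic-control array, it was above in 17 of 20, against 50% of all genes. The part of single arrays in the difference between orientations was not tested.

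Other genes of the same processes were read for comparison. Over all 7 arrays 8.14% of all genes passed. Of 25 measured genes that act at forks and origins, none fell and 1 rose. This was timeout, a relative of the clock gene timeless, which read 1.46, 0.49 and 0.75 on arrays 1.1 to 1.3 and 0.84, 1.02, 1.68 and 1.3 on arrays 2.1 to 2.4. All 7 values were positive, and the fit was 1.1 ± 0.17 (limma adjusted p = 0.00854). It passed in 13 of 13 alternative analyses. The GINS subunit gene Sld5 fitted to −0.50 ± 0.20, the fork adaptor Ctf4 to −0.49 ± 0.20 and the small subunit of single-strand binding protein RPA3 to 0.52 ± 0.15, and none of these passed (limma adjusted p = 0.212, 0.203 and 0.0836). Sld5 and Ctf4 were lowest on arrays 2.1 and 2.2, like the MCM genes, with −1.87 and −0.79 for Sld5 and −1.73 and −0.76 for Ctf4. The median transgenic-control effect of the 25 genes was −0.35, and their median over all arrays was −0.15.

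Among 13 measured endocycle and growth regulators, 1 gene rose and none fell, where 8.14% of all genes passed. Cdk4, the growth-linked kinase that partners Cyclin D, read 0.65, 0.84 and 1.27 with genomic controls and 1.07, 0.38, 0.86 and 1.01 with transgenic controls. Each array was positive and the sets overlapped, with a fit of 0.89 ± 0.14 (limma adjusted p = 0.00854), and it also passed in 13 of 13 alternative analyses. CycD was positive on all 7 arrays too, from 0.16 to 1.01, and its fit of 0.61 ± 0.15 lay just outside the threshold (limma adjusted p = 0.0509). SuUR, which slows forks in polytene heterochromatin, was negative on all 7 arrays, from −0.75 to −0.17, and fitted to −0.37 ± 0.13 (limma adjusted p = 0.153). E2f2, the repressive E2F factor, was negative on 6 of 7 arrays, with 0.92 on array 1.3, and fitted to −0.50 ± 0.21 (limma adjusted p = 0.216).

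Of 33 other measured mitosis genes, 1 rose and none fell, where 8.14% of all genes passed. Cdc23, a subunit of the anaphase-promoting complex, read 0.56, 0.81 and 0.84, then 1.60, 0.71, 0.10 and 1.19, all positive, and fitted to 0.82 ± 0.19 (limma adjusted p = 0.0384). Its call was lost in 9 of 13 alternative analyses, with adjusted p up to 0.137. The checkpoint gene Mad1 fitted to 0.60 ± 0.16 (limma adjusted p = 0.0569) and was positive on 6 of 7 arrays. The widest spread of the list was in cid, the centromeric histone, with −6.92 on array 2.1 and −4.77 on array 2.3 but between −0.16 and 0.05 with genomic controls, and its fit of −2.0 ± 0.91 did not pass (limma adjusted p = 0.271). Spindly, which brings dynein to kinetochores, read 6.56 on array 2.1 and 3.18 on array 1.3 and between −0.35 and 0.96 elsewhere. The median fitted log ratio of the 33 genes was −0.01.

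Markers of cell types were read beside these values, as log ratios only, so they do not check the labelled tissue. The imaginal cell markers esg and eyg, which would follow the diploid ring, did not pass (limma adjusted p = 0.927 and 0.272). esg ranged from −2.16 on array 2.1 to 2.57 on array 2.3, and eyg was negative on 6 of 7 arrays, with a fit of −0.37 ± 0.17. The share of all genes that passed was 8.14%, and each marker list is short. Of 7 salivary gland markers, Sgs1 (−6.21 ± 0.31) and sage (−1.13 ± 0.17) fell. The other 5 did not pass, with fits from −1.06 ± 0.29 in Sgs5 to 1.25 ± 0.36 in PH4alphaSG1. Of 5 fat body markers Apoltp rose (0.91 ± 0.19), and the other 4 did not pass, with fits from −1.10 ± 0.32 in Fbp1 to 0.19 ± 0.18 in Fbp2. Of 7 hemocyte markers ush rose (3.29 ± 0.16), and the other 6 had fits from −0.06 to 0.79. Of 7 muscle markers TpnC73F fell (−1.19 ± 0.21), and the other 6 had fits from −0.46 to 0.33. None of 5 nervous system markers passed. The part of the makeup of the glands in the ratios of the 35 genes was not tested.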

How the data were processed

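The authors deposited 1 log ratio per array for each of 14569 probes, which was treated as a log2 value. Their background correction, normalization, filters and log base were not given in the sources used here. The sign was assumed to mean the same on every array. Across genes, 12 array pairs of opposite dye orientation correlated between 0.04 and 0.493 and 9 pairs of the same orientation between −0.041 and 0.602, and Sgs1 was negative and ush positive on all 7 arrays. The design text gives the dye counts the other way round from the channel labels, and the labels were used. Probes with 1 symbol (12658) were named through the platform annotation and the NCBI RefSeq gene table of Release 6, and probes of a gene were averaged. Gene means were fitted with limma 3.58.1 in R 4.3.3 with a gene-wise dye term, on all 7 arrays and with an effect per control type. The fits left 5 and 4 residual degrees of freedom. Per the design text, the 7 sample pairs are independent biological samples. The scripts were tested on simulated data with normal noise. There 48.6% of genes with a log2 change of 1 over all arrays passed, and 97.4% with a change of 2. Of genes with a simulated difference of 2 between the control types, 38% passed, so many differences of that size would be missed. The genes and lists were chosen with earlier results of these data known. All 35 genes are named. Other lists name genes past the test and, where fewer than 4 passed, the 4 with the largest fitted ratio. Markers are named where they passed. The genes borr, Det, esg, eyg, Sgs5, PH4alphaSG1, Fbp1 and Fbp2 were named after their values were seen. Alternatives changed the centring, scaling, dye term, control type term, array weights, probe averaging, threshold and arrays.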

Additional observations from a re-analysis of the deposited data

Results flagged for a closer look

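In 3 genes 1 array stood apart from the other 6 by Dixon's criterion. Orc4 read 2.04 on array 1.3, against −1.20 to 0.18 on the others. E2f1 read 1.16 on array 1.1, against −0.45 to 0.23 on the others, and thr read −1.11 on array 2.4, against −0.11 to 0.23. These were 3 of 74 groups checked, and chance flags about 1 in 20. Without those arrays, no gene of the 35 passed.

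All 3 genomic-control arrays were positive and all 4 transgenic-control arrays negative for dup, the Cdt1 gene. Array 1.2 was positive by only 0.01, below the median of all genes there (0.03). The means differed by 0.94. The fitted difference was 0.98 ± 0.49 (limma adjusted p = 1.0), so it did not pass.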

How the results depend on the processing

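The count of called genes moved from 945 to 1446 at an adjusted p under 0.1, and lay between 461 (without array 2.4) and 925 when single arrays were left out, with 606 without array 1.1, 485 without 1.2 and 546 without 2.1. The count of called members stayed at 0, except for 1 (Orc1) at an adjusted p under 0.1. The single transgenic-control call, Orc1, was lost with centring, scaling, array weights and probes fitted alone (0 members called in each) and with any single array left out (0 to 0), the genomic-control arrays included, and remained without a dye term. The mitosis count of genes with a higher genomic-control mean was 7 with scaling and 7 on the Cy5 arrays alone, both chosen after seeing the data, and 7 to 13 with single arrays left out. The replication median lay between −0.33 and −0.11 with single arrays left out and was −0.03 with array weights, where the mitosis median was −0.23. The transgenic-control replication median lay between −0.76 and −0.22, the latter without array 2.1 (−0.33 without 2.2), and the genomic-control one between −0.11 (without 1.3) and 0.28. With scaling they were −0.32 and 0.035. Of 455 values of single members under alternatives, 29 in 14 members had the opposite sign, and none passed (lowest adjusted p 0.0537). The sign turned for Mcm2 with scaling (0.0166), a control type term (0.00167) and array weights (0.0315), and for Mcm5 without a dye term (−0.0472). With array weights it turned for dpa (0.274), Mcm6 (0.0346), RnrL (0.0204), Incenp (0.0641), SMC2 (0.00992) and Cap-G (−0.0205). With single arrays left out, the fits ran from −0.075 to 0.19 for Mcm5, −0.018 to 0.169 for CycE, −0.054 to 0.082 for Cap-G, −0.158 to 0.052 for Orc3, −0.124 to 0.088 for Mcm2, −0.318 to 0.082 for pim, −0.646 to 0.137 for Orc4, −0.634 to 0.027 for dpa, −0.419 to 0.013 for RnrL, −0.301 to 0.051 for CycB and −0.226 to 0.068 for thr. The differences of plain means without array 1.3 were also chosen after seeing the data. The causes were not tested. No paired analysis was possible because no replicate number is shared between the control types. No depth or signal over background was analysed here.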
